A study of Homo sapiens with 12 samples.

Results

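The 44 genes described here encode the machinery of mitosis: the kinase that starts it with its cyclins, the motors and fibres of the spindle, the kinetochores that tie chromosomes to the spindle, the checkpoint that waits for that attachment, the proteins that compact the chromosomes, and the enzymes that release the sister chromatids. They are a list of gene names, drawn up with earlier results of these data known, and were matched by name in the deposited table of 60612 genes. All 44 were found, and all 44 passed the filter on low counts, so none is missing from the counts below. They were measured in LX2 cells, an established, immortalised human line of hepatic stellate cells (the matrix-producing cells of the liver), in 12 libraries of polyadenylated RNA. Every dish was starved of serum for 16 h, beginning 24 h after seeding. The 4 control libraries came from cells left untreated, the 4 TGFb libraries from cells given 5 ng/ml of TGFb for 16 h, and the 4 libraries of STINGX with TGFb from cells that received 10 µM of the code-named compound STINGX for 3 h before the same TGFb. No group given STINGX without TGFb was analysed here, all cells were wild type and of 1 line, and the labels do not say whether replicates were separate cultures.

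In a dividing cell these genes are not transcribed evenly. Their messages build up through G2 and peak at mitosis, and in resting cells they are held low. The programme is driven by the MuvB complex, which joins the transcription factors MYBL2 and FOXM1 in cycling cells and the pocket proteins in resting cells, and which binds DNA at the CHR element (cell cycle genes homology region). Many of the promoters also carry CCAAT boxes, the binding site of the trimeric factor NF-Y. Hepatic stellate cells divide little in a healthy liver and proliferate after injury, whereas LX2 is a cycling line.

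The promoters of 7 members are printed because they show these elements in the genes the results turn on, namely 6 of the 10 genes that were at least 2-fold lower with STINGX and, for contrast, the gene that was lowered least. The sequences are those of RefSeq on GRCh38.p14, 260 bases each, from 250 bases before the annotated start to 10 bases after it, written 5′ to 3′ on the gene's own strand. Capitals mark the CHR motif TTTGAA on either strand, its variant TTTAAA (which reads the same on both strands), and CCAAT on either strand. The windows lie at chr5:138178862-138179121, plus strand for KIF20A, chr17:40417887-40418146, minus strand for TOP2A, chr14:55191576-55191835, minus strand for DLGAP5, chr16:23678639-23678898, plus strand for PLK1, chr15:59104896-59105155, plus strand for CCNB2, chr5:69166900-69167159, plus strand for CCNB1 and chr9:104094059-104094318, plus strand for SMC2.
KIF20A: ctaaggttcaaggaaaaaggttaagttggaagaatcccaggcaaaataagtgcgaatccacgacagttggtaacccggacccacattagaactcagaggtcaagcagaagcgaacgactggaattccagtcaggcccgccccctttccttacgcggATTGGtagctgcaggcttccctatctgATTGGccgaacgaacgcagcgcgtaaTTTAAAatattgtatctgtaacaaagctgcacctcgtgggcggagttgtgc
TOP2A: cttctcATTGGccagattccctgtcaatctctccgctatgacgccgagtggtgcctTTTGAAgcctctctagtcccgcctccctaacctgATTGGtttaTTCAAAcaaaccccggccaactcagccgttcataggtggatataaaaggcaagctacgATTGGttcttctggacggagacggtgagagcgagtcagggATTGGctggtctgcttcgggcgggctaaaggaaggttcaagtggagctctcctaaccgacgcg
DLGAP5: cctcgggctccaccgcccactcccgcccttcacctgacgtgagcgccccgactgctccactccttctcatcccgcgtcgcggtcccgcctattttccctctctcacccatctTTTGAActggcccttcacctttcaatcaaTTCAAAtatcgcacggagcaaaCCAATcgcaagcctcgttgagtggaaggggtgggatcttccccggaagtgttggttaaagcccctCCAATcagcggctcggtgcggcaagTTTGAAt
PLK1: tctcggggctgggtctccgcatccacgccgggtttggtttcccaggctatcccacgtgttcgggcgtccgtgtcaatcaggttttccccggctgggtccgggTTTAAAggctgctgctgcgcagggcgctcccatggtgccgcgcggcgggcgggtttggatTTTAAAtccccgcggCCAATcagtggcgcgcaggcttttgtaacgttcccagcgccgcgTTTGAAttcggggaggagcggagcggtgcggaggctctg
CCNB2: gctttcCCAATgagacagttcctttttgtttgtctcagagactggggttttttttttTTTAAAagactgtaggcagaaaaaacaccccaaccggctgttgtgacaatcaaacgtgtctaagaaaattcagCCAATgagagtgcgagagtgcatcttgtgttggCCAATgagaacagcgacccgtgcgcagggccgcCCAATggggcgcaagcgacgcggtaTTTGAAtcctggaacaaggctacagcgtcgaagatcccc
CCNB1: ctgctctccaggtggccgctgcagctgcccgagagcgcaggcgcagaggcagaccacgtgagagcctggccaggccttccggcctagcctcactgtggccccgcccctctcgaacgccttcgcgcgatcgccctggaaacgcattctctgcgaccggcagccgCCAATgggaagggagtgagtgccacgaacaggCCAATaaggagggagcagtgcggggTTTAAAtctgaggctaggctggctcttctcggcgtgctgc
SMC2: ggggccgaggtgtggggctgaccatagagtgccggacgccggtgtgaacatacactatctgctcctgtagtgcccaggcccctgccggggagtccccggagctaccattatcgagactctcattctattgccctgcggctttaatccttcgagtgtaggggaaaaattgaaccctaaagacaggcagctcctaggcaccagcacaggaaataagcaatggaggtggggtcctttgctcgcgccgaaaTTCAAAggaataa

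In these windows KIF20A and CCNB1 had no TTTGAA and 1 TTTAAA each, with 2 CCAAT boxes apiece just upstream. DLGAP5 had 3 TTTGAA matches, TOP2A had 2, and PLK1, CCNB2 and SMC2 had 1 each. SMC2 was the only one of the 7 without a CCAAT box, but the 7 were chosen after values were seen. Across the members, 39 of 44 were matched in the promoter table, in 47 windows of 300 bases (250 before the start to 50 after it, some genes having several starts, whose windows overlap). UBE2C, AURKA, BIRC5, TPX2 and TTK were not matched. TTTGAA stood in 68.1% of the member windows, against 15.2% of all 35116 windows and 10.9% of the 18021 windows of genes tested here. CCAAT stood in 70.2%, against 34.6% and 34.4%, and both motifs together in 51.1%, against 5.90% and 4.28%. With TTTAAA counted as well, 36 of the 39 members had a CHR-type match. CCAAT was in a window of 29 of the 39. The members without it had log2 fold changes from -0.88 (BUB1B) to -0.16 (SMC2) in STINGX with TGFb against TGFb. Whether the change differed with and without CCAAT was not tested. An E2F-type motif, TTTNNCGC on either strand, was in 14.9% of the member windows, against 6.89% of all windows and 9.24% of those of tested genes. Neighbouring motifs can overlap by a few bases.

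The 2 elements sat at different distances from the start. Matches were counted per window, so a site in overlapping windows of the same gene, as in PTTG1 and CDC25C, was counted in each. Positions in the windows of other genes were not compared. Of 41 TTTGAA matches, 30 began at or downstream of 50 bases before the start, with a median position of -28 (the start base counted as 0). Of 67 CCAAT matches, 54 began upstream of that line, with a median of -78. STINGX with TGFb against TGFb had a median log2 fold change of -0.81 in the 30 members with TTTGAA and -0.82 in the 9 without. This difference was not tested, and some of the 9, such as KIF20A and CCNB1, had TTTAAA instead. These are matches of letters, not measured binding.

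**Figure D1:**
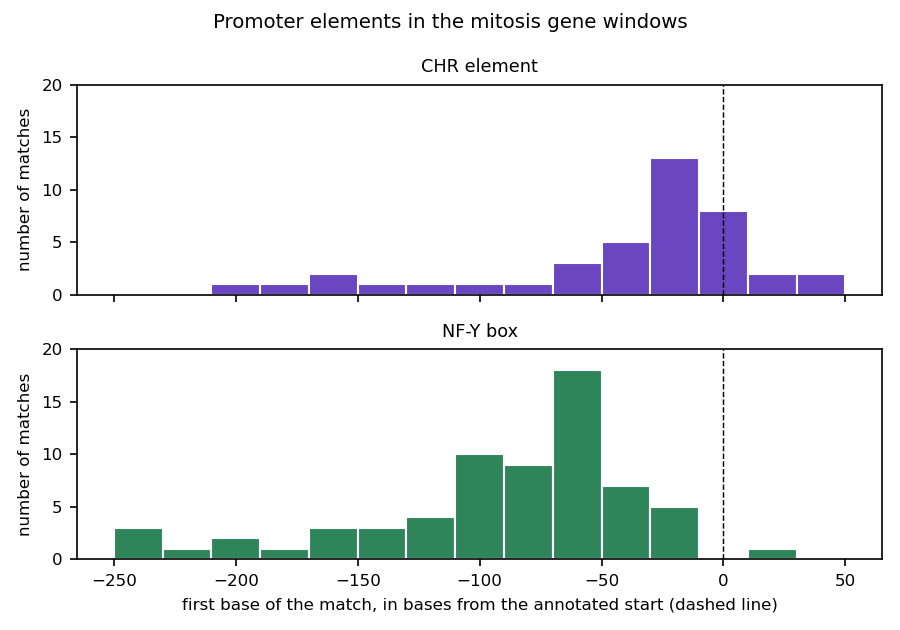
Positions of the CHR element (TTTGAA, upper histogram) and the NF-Y box (CCAAT, lower histogram) in the promoter windows of the 39 matched members; the horizontal axis is the distance in bases of the first base of each match from the annotated start, in bins of 20 bases, and the vertical axis the number of matches. The CHR matches gather close to the start (median -28) and the NF-Y boxes further upstream (median -78). A site in overlapping windows of the same gene is counted in each.

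Library totals ran from 54035320 to 70787741 counts. Mitochondrially encoded genes took 10.0 to 11.3% of counts in control, 8.77 to 9.46% with TGFb and 8.16 to 8.46% with STINGX and TGFb. Of 11 stellate cell markers, 9 had counts, with DES and LRAT at 0 in all 12 libraries, and their summed level was 6447 to 6505 CPM (counts over the TMM-scaled library size) in control, 10704 to 11001 with TGFb and 5212 to 5688 with STINGX and TGFb. Most of this level came from COL1A1 and VIM. With TGFb against control, COL1A1, COL1A2, PDGFRB, TIMP1 and ACTA2 were higher, COL3A1 and DCN lower, and VIM and GFAP did not pass. Of 8 hepatocyte markers, 5 had counts, with ALB, APOB and TTR at 0, and the sums were 7.99 to 10.5, 5.05 to 6.39 and 3.84 to 4.02 CPM in the same order. All 6 endothelial markers had counts, with sums of 10.9 to 15.04 CPM over the 12 libraries. Of 7 macrophage and leukocyte markers, 6 had counts, with CD3E at 0, and the sums, most of which were CD68, were 72.8 to 80.6, 30.0 to 35.3 and 74.7 to 89.9 CPM. All 5 cholangiocyte and epithelial markers had counts, nearly all of them from KRT7 and SOX9, with sums of 44.7 to 48.8, 56.7 to 65.1 and 29.4 to 30.7 CPM. These shares and markers moved with the groups, and their part in the results below was not tested.

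With STINGX and TGFb, nearly the whole set was lower than with TGFb alone. Of the 44 genes, 42 were lower (adjusted p under 0.05, edgeR) and 0 higher, where 13.8% of all 21328 genes tested were lower and 13.7% higher. The median log2 fold change of the 44 was -0.81, a fall of 42.9%, against 0.01 over all genes tested. All 4 STINGX libraries lay below all 4 TGFb libraries for 42 of the 44, against 15.7% of all genes. The 2 genes that did not pass were SMC2 and AURKA. Log2 fold changes are given below with their standard error (SE) and edgeR's adjusted p. At least 2-fold lower were 10 members, against 3.43% of all genes: KIF20A, TOP2A, DLGAP5, NUSAP1, MKI67, ASPM, PLK1, CCNB2, UBE2C and CCNB1. With library size alone as the scaling, which moved the median of all genes to 0.15 and split their calls into 4997 higher and 1890 lower, 41 members were lower with a median of -0.67. These are bulk samples, in which fewer cells in mitosis and less of each message per cell cannot be told apart.

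The summed level of the 44 genes shows the size of the shift. It was 5311 to 5551 CPM in the control libraries, 5315 to 5438 with TGFb and 2951 to 3048 with STINGX and TGFb. The 4 STINGX libraries thus stood far below the other 8, which overlapped one another in CPM. In summed FPKM the control libraries (1097 to 1165) lay above the TGFb libraries (1054 to 1072) without overlap. The STINGX libraries were at 632 to 644. As a share of all counts the 44 genes took 0.518 to 0.561% in control, 0.509 to 0.523% with TGFb and 0.309 to 0.322% with STINGX. The summed level of 40 DNA replication genes, which act earlier in the cycle, went over the same groups from 5039 to 5321 CPM, through 4923 to 5016, to 4321 to 4447 CPM. Whether the 2 sets differed in their change was not tested.

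**Figure D2:**
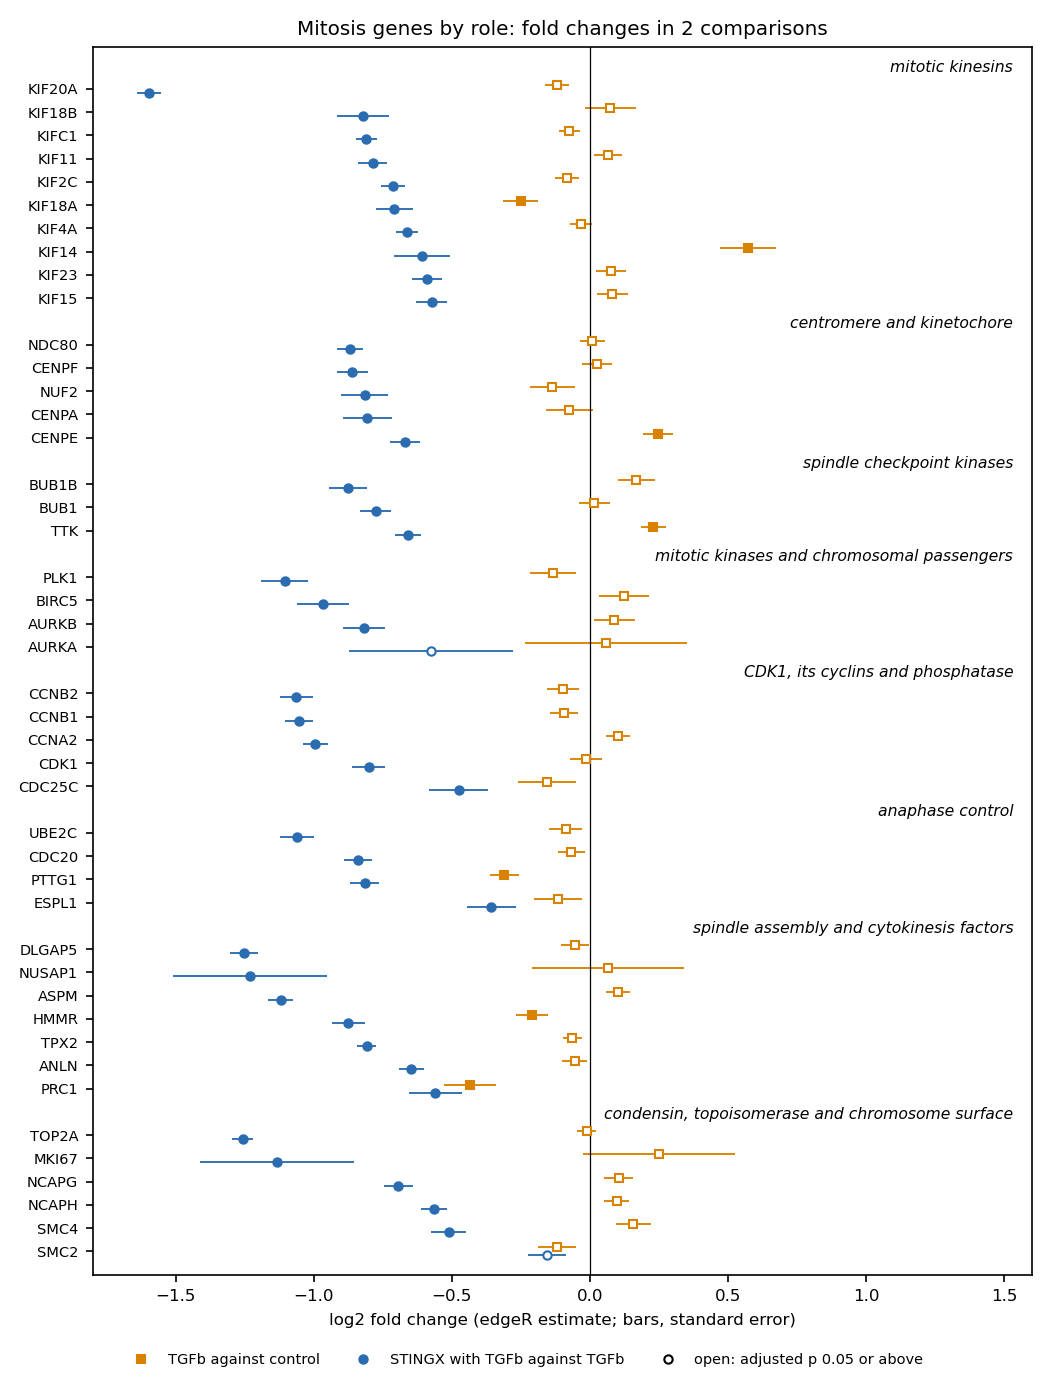
Log2 fold changes of the 44 genes, grouped by role and ordered within each role, in TGFb against control (squares) and STINGX with TGFb against TGFb (circles); bars are standard errors, and open symbols did not pass an adjusted p under 0.05 (edgeR, 4 libraries per group). The circles lie left of 0 throughout, from -1.60 for KIF20A to -0.16 for SMC2, and most squares lie near 0.

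TGFb alone moved few of them. Against control, 3 of the 44 were higher and 4 lower, where 13.2% of all genes tested were higher and 12.8% lower, and the median log2 fold change was -0.01. None was at least 2-fold lower (3.56% of all genes). The higher genes were KIF14, CENPE and TTK, and the lower ones PRC1, PTTG1, KIF18A and HMMR. The other 37 had log2 fold changes between -0.16 and 0.25. The number of lower members depended on the scaling, as did that of all genes, of which 2730 of 21328 were lower as reported. Under upper quartile scaling 8 members and 3207 of all genes were lower, and with library size alone 10 members and 3523 of all genes. On log2(FPKM + 1), which also changes the measure, the filter and the test, 11 members were lower, and 3078 of all 14764 genes. In each of these 3 were higher. Over all 26 settings tried, PRC1, PTTG1, KIF18A and HMMR were lower and KIF14 and TTK higher in every one, and CENPE was higher in 25.

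Set against untreated cells, the genes with STINGX and TGFb were again lower in 42 of 44 cases and higher in 0, where 17.0% of all genes were lower and 17.2% higher. The median log2 fold change was -0.84. The libraries did not overlap for 41 genes (16.7% of all genes), and 11 were at least 2-fold lower (4.39% of all genes). The 2 that did not pass were KIF14 and AURKA. The 3 comparisons share libraries in pairs, so they are not independent of one another.

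**Figure D3:**
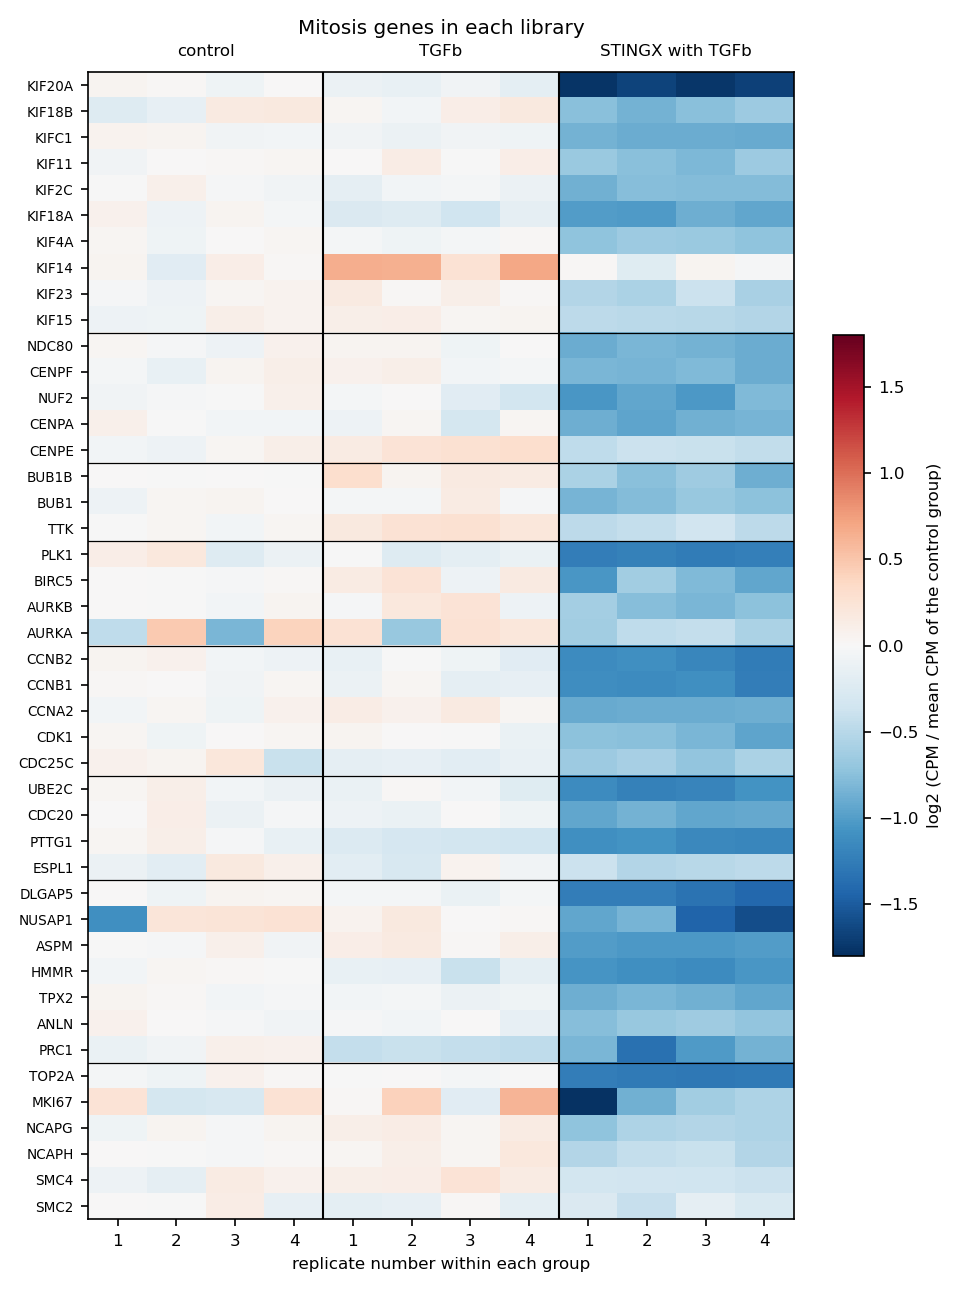
Level of each of the 44 genes in each of the 12 libraries, as log2 of its CPM over the mean CPM of the 4 control libraries (blue lower, red higher); columns are the 4 replicates of each group, and lines part the roles. The STINGX with TGFb columns are blue for almost every gene, KIF14 is red with TGFb only, and AURKA, NUSAP1 and MKI67 vary among libraries of the same group.

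The 10 mitotic kinesins, motors that slide, shorten or carry along microtubules, were all lower with STINGX than with TGFb alone, with a median log2 fold change of -0.71. KIF20A, which carries the chromosomal passenger complex to the central spindle at anaphase (ENSG00000112984, chromosome 5, 138178719 to 138187723, plus strand), had the largest fall of all 44. Its level was 151, 148, 138 and 146 CPM in control, 135, 132, 139 and 129 with TGFb and 42.7, 46.002, 43.1 and 45.4 with STINGX and TGFb. Only TGFb replicate 3 entered the control range, at its lower end, and the other TGFb libraries lay just below it. All STINGX libraries lay far below both groups, 3.02-fold under the TGFb mean, with a log2 fold change of -1.60 ± 0.04, adjusted p = 6.59e-11. Against control the TGFb value was -0.12 (adjusted p = 0.0598), which passed in 9 of the 25 other settings. KIF20A overlaps CDC23 on the opposite strand, a gene with 63.6% as many counts. CDC23 itself stood at -0.14 in STINGX with TGFb against TGFb and at 0.22 in TGFb against control.

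KIF11, the motor that pushes the spindle poles apart, was at 79.0, 83.1, 84.3 and 84.5 CPM in control, 83.0, 91.0, 82.6 and 89.7 with TGFb and 52.1, 49.0, 47.1 and 52.6 with STINGX. The first 8 libraries were alike and the last 4 lower (-0.79, adjusted p = 1.86e-07). KIF18A, which damps the swings of chromosomes at the metaphase plate, stepped down at both treatments, from 28.1, 25.3, 27.6 and 26.1 CPM in control through 22.3, 22.8, 20.9 and 24.0 to 13.4, 13.3, 14.5 and 13.9. No library of one group reached the range of the next (TGFb against control -0.25, adjusted p = 0.011; STINGX with TGFb against TGFb -0.71, adjusted p = 4.29e-06).

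KIF14, a motor of cytokinesis, had the largest rise with TGFb. It stood at 39.2, 33.1, 41.2 and 38.4 CPM in control, 59.6, 59.0, 45.3 and 61.8 with TGFb and 38.5, 32.6, 39.4 and 37.6 with STINGX and TGFb. The TGFb libraries were all above the control range, though replicate 3 by little, and the STINGX libraries lay among or just under the control values. The log2 fold changes were 0.57 ± 0.10, adjusted p = 0.00111 with TGFb, -0.61 ± 0.10, adjusted p = 0.000662 from TGFb to STINGX with TGFb, and -0.04 (adjusted p = 0.815) from control to STINGX with TGFb. With 1 library left out at a time, the rise with TGFb ran from 0.51 to 0.66. The other 6 kinesins were lower too, with KIF18B at -0.82, KIFC1 -0.81, KIF2C -0.71, KIF4A -0.66, KIF23 -0.59 and KIF15 -0.57, as log2 fold changes of STINGX with TGFb against TGFb. KIF4A overlaps PDZD11 on the opposite strand.

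All 5 centromere and kinetochore members were lower with STINGX, in a narrow range from -0.87 to -0.67 (median -0.82). NDC80, the microtubule-binding rod of the outer kinetochore, had 101, 97.4, 92.7 and 104 CPM in control, 102, 102, 93.7 and 99.7 with TGFb and 53.4, 56.0, 54.9 and 53.4 with STINGX. Control and TGFb libraries were interleaved, and the STINGX libraries were set apart below them (-0.87 ± 0.05, adjusted p = 3.13e-08). Its partner NUF2 had a log2 fold change of -0.82. CENPF, a large kinetochore protein, was at 192, 178, 204 and 211 CPM, 207, 210.4, 190.5 and 192 CPM and 111, 110.4, 114 and 106 CPM in the same order of groups, again with only the STINGX libraries set apart (-0.86 ± 0.06, adjusted p = 1.55e-07).

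CENPE, a kinesin of the kinetochore that brings chromosomes to the plate, moved both ways. Its libraries read 50.8, 49.6, 54.2 and 56.7 CPM in control, 58.8, 62.9, 63.9 and 64.9 with TGFb and 38.4, 40.3, 39.9 and 38.8 with STINGX. Each TGFb library exceeded each control library (0.25 ± 0.05, adjusted p = 0.00426), and each STINGX library was under both groups (-0.67 against TGFb; -0.42 against control). The rise was not called on unfiltered log2(FPKM + 1). CENPA, the histone H3 variant that marks centromeres, had -0.81. It shares its strand with SLC35F6, which has 549% as many counts, so its own count is less certain.

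The 3 spindle checkpoint kinases were lower with STINGX, and 1 of them was higher with TGFb. TTK, the kinase that starts checkpoint signalling at unattached kinetochores, was measured at 57.9, 59.7, 56.2 and 59.7 CPM in control, 66.0, 69.8, 70.8 and 67.1 with TGFb and 42.0, 43.6, 45.8 and 42.1 with STINGX. The 3 groups formed separate bands, TGFb on top (0.23 ± 0.05, adjusted p = 0.00244 against control) and STINGX lowest (-0.66 ± 0.05, adjusted p = 3.26e-07 against TGFb). For BUB1, which recruits the other checkpoint proteins, the values were 91.2, 99.9, 101 and 98.1 CPM, 94.9, 95.6, 108 and 95.8 CPM and 54.5, 56.7, 60.8 and 58.6 CPM. Only the STINGX libraries were apart from the rest (-0.78 ± 0.06, adjusted p = 4.55e-07). BUB1B, part of the inhibitor of anaphase, had -0.88.

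Among the mitotic kinases and chromosomal passengers, PLK1, AURKB and BIRC5 fell with STINGX, and AURKA did not pass. PLK1, a kinase with tasks from centrosome maturation to cytokinesis (ENSG00000166851, chromosome 16, 23677656 to 23690366, plus strand), was at 109, 114, 85.1 and 93.4 CPM in control, 99.9, 85.6, 88.8 and 92.3 with TGFb and 42.6, 43.1, 41.9 and 42.7 with STINGX. The STINGX libraries were close together and 2.15-fold below the TGFb mean (-1.10 ± 0.09, adjusted p = 7.76e-07). AURKB, the kinase of the passenger complex that releases faulty attachments, had 69.8, 68.7, 66.7 and 71.3 CPM, 67.8, 78.7, 82.2 and 65.1 CPM and 45.3, 40.7, 39.1 and 41.6 CPM, with the STINGX libraries below the other 8 (-0.82 ± 0.08, adjusted p = 4.11e-06). BIRC5 (survivin), which targets that complex to centromeres, had 28.0, 27.5, 27.3 and 28.1 CPM, 30.6, 33.0, 26.0 and 31.0 CPM and 13.5, 17.96, 15.9 and 14.5 CPM. Here too no STINGX library reached the range of another group (-0.97 ± 0.09, adjusted p = 6.56e-06).

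AURKA, the centrosomal kinase of spindle assembly (ENSG00000087586, chromosome 20, 56369389 to 56392296, minus strand), was uneven within groups. Its libraries read 85.3, 164, 66.7 and 155 CPM in control, 141, 73.7, 141 and 135 with TGFb and 76.5, 85.9, 87.3 and 79.2 with STINGX. In control 2 libraries were high and 2 low, and with TGFb replicate 2 was low, so that the STINGX values fell inside the range of both groups. The log2 fold change against TGFb was -0.58 ± 0.30, adjusted p = 0.186, and over the 26 settings it ran from -0.76 to -0.38 without passing in any. The authors' transcript table divided the gene's counts over 13 transcripts, and 6 of these led in at least 1 library. The part of that division in the spread of the gene count was not tested.

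CDK1, its cyclins and its activating phosphatase all fell with STINGX (5 of 5, median -0.99). CDK1, the kinase that drives entry into mitosis, was at 59.9, 55.3, 58.5 and 59.8 CPM in control, 60.7, 58.5, 58.2 and 53.9 with TGFb and 35.2, 34.6, 32.9 and 30.2 with STINGX. Control and TGFb libraries shared 1 range, and the STINGX libraries were well under it (-0.80 ± 0.06, adjusted p = 5.37e-07). CCNB1, cyclin B1, its main partner (ENSG00000134057, chromosome 5, 69167135 to 69178245, plus strand), had 257, 256, 242 and 259.6 CPM, 236, 259.7, 227 and 228 CPM and 117, 116, 118 and 107 CPM. The STINGX libraries were 2.08-fold below the TGFb mean and far from both other groups (-1.05 ± 0.05, adjusted p = 8.95e-09). CCNB2 (-1.06) and CCNA2, cyclin A2 (-0.99), also fell. CCNA2 overlaps EXOSC9 on the opposite strand, which itself had -0.45.

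CDC25C, the phosphatase that removes the inhibitory phosphates of CDK1, had the smallest fall in this role. It had 27.6, 27.1, 30.0 and 19.7 CPM in control, 23.3, 23.5, 22.9 and 23.9 with TGFb and 16.6, 17.3, 15.9 and 17.6 with STINGX. The groups of TGFb and STINGX did not overlap, while control replicate 4 was the low one among the controls (-0.47 ± 0.11, adjusted p = 0.00521). Without that control library the difference between TGFb and control, -0.16 with an adjusted p = 0.325, became -0.27 with an adjusted p = 0.00805.

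The 4 members that control anaphase were all lower with STINGX (median -0.83). CDC20, the activator that lets the anaphase-promoting complex (APC/C) destroy its mitotic targets, was at 120.5, 131, 112 and 118 CPM in control, 113, 111, 121 and 114 with TGFb and 63.1, 66.6, 62.8 and 63.8 with STINGX. The STINGX libraries were close together and lay far below the rest (-0.84 ± 0.05, adjusted p = 8.66e-08). UBE2C, the ubiquitin-conjugating enzyme of that complex, had 206, 216, 194 and 187 CPM, 186, 204, 194 and 172 CPM and 92.1, 86.4, 88.4 and 95.5 CPM. Its highest STINGX library was far below the lowest of the others (-1.06 ± 0.06, adjusted p = 5.52e-08).

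PTTG1, securin, which holds separase inactive until anaphase, stepped down with each treatment, from 112, 117, 108 and 99.1 CPM in control through 91.4, 88.2, 86.2 and 85.1 with TGFb to 50.7, 51.9, 48.9 and 48.0 with STINGX. The 3 groups did not overlap, at -0.31 ± 0.05, adjusted p = 0.000768 for TGFb against control and -0.82 ± 0.05, adjusted p = 1.81e-07 for STINGX with TGFb against TGFb. ESPL1, separase itself, the protease that cuts cohesin, had the smallest fall that passed. Its libraries read 75.9, 71.9, 92.4 and 86.9 CPM, 71.9, 67.2, 85.2 and 78.0 CPM and 62.4, 56.9, 57.8 and 58.9 CPM. The highest STINGX library was just under the lowest TGFb library (-0.36 ± 0.09, adjusted p = 0.00891), and the call was lost with library size alone as the scaling (-0.22, adjusted p = 0.114) and on log2(FPKM + 1) (-0.19, adjusted p = 0.119).

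The 7 spindle assembly and cytokinesis factors were all lower with STINGX (median -0.88), and 3 of them at least 2-fold. TPX2, which activates AURKA and nucleates microtubules near chromosomes, was at 384, 376, 358 and 365 CPM in control, 358, 362, 346 and 352 with TGFb and 202, 210.1, 203 and 195 with STINGX. Replicates were tight and the STINGX libraries clearly apart (-0.81 ± 0.04, adjusted p = 3.8e-09). ASPM, which focuses spindle poles, had 93.7, 92.5, 100.1 and 90.4 CPM, 102, 105, 95.4 and 101 CPM and 46.7, 46.1, 46.01 and 47.0 CPM. Its 4 STINGX values were nearly identical and 2.17-fold below the TGFb mean (-1.12 ± 0.04, adjusted p = 1.7e-09).

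DLGAP5, a stabiliser of kinetochore fibres (ENSG00000126787, chromosome 14, 55148112 to 55191585, minus strand), read 89.9, 84.9, 92.5 and 91.7 CPM in control, 87.9, 87.6, 82.5 and 87.8 with TGFb and 37.9, 37.8, 35.8 and 33.7 with STINGX. The first 8 libraries lay between 82.5 and 92.5 CPM, and no STINGX library came near them (-1.25 ± 0.05, adjusted p = 1.9e-09). PRC1, which bundles antiparallel microtubules at the midzone, had the largest fall with TGFb alone. It went from 156, 161, 180.1 and 179 CPM in control through 125, 127, 125 and 123 with TGFb to 96.0, 66.7, 83.0 and 93.7 with STINGX. The groups did not overlap, and the STINGX libraries were less even than the TGFb ones (-0.43 ± 0.09, adjusted p = 0.00439 with TGFb; -0.56 ± 0.10, adjusted p = 0.000748 from TGFb to STINGX with TGFb). PRC1 shares its strand with AC068831, with 30.9% as many counts, which itself had -1.13 in the latter comparison.

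HMMR, a spindle protein also known as a hyaluronan receptor, was at 62.6, 66.1, 65.6 and 64.5 CPM in control, 59.0, 58.4, 49.0 and 57.4 with TGFb and 31.0, 30.0, 29.6 and 31.4 with STINGX. It went down in both steps without overlap of the groups (-0.21 ± 0.06, adjusted p = 0.0194 with TGFb; -0.88 ± 0.06, adjusted p = 2.73e-07 from TGFb to STINGX with TGFb). ANLN, anillin, a scaffold of the contractile ring, had -0.65 in the second of these steps. NUSAP1, which bundles microtubules around chromosomes, was among the large falls but was uneven. It read 74.3, 185, 187 and 190.1 CPM in control, 166, 179, 160.1 and 162 with TGFb and 83.6, 89.2, 58.6 and 52.5 with STINGX. Control replicate 1 was far below the other controls and inside the STINGX range, and STINGX replicates 3 and 4 were below replicates 1 and 2. The log2 fold change against TGFb was -1.23 ± 0.28, adjusted p = 0.00759, and that against control -1.16 ± 0.28, adjusted p = 0.00825. On unfiltered log2(FPKM + 1) the latter was -0.99 with an adjusted p = 0.0705. Its counts were divided over 14 transcripts, of which 5 led in at least 1 library.

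The last role holds the proteins that compact and coat the chromosomes. TOP2A, the topoisomerase that untangles sister DNA (ENSG00000131747, chromosome 17, 40388525 to 40417896, minus strand), had the next largest fall after KIF20A. Its values were 455, 442, 491 and 474 CPM in control, 462, 467, 452 and 465 with TGFb and 197, 192, 191 and 193 with STINGX. Control and TGFb libraries overlapped (-0.01, adjusted p = 0.843), and the STINGX libraries, close to one another, were 2.39-fold below TGFb (-1.26 ± 0.04, adjusted p = 8.56e-11).

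The 4 condensin members had log2 fold changes from -0.69 to -0.16. SMC4, 1 of the 2 ATPases of its core, was at 211, 201, 250.5 and 238 CPM in control, 243, 244, 268 and 249 with TGFb and 179, 177, 176 and 173 with STINGX. The STINGX libraries were below all others (-0.51 ± 0.06, adjusted p = 5.25e-05), and the gene overlaps TRIM59 and IFT80 on the opposite strand. SMC2, the other ATPase (ENSG00000136824, chromosome 9, 104094260 to 104141409, plus strand), had 127, 126, 138 and 114 CPM, 111, 114, 127 and 111 CPM and 105, 94.5, 112 and 105 CPM. The STINGX range reached into the TGFb range (-0.16 ± 0.07, adjusted p = 0.121). It stayed under the controls (-0.28, adjusted p = 0.00816), a call lost with library size alone (-0.20, adjusted p = 0.0523). The condensin I subunits NCAPG and NCAPH had -0.69 and -0.56, both lower than TGFb in every STINGX library. NCAPG overlaps LCORL on the opposite strand.

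MKI67, which encodes the proliferation antigen Ki-67, a coat of mitotic chromosomes (ENSG00000148773, chromosome 10, 128096659 to 128126423, minus strand), fell with a wide error. Its libraries read 326, 221, 226 and 329.6 CPM in control, 279.8, 368, 240.3 and 423 with TGFb and 80.5, 151, 179 and 187 with STINGX. Replicates with STINGX differed by more than 2-fold, and STINGX replicate 1 was the lowest of all. Even so no STINGX library reached the TGFb or control range (-1.13 ± 0.28, adjusted p = 0.0117 against TGFb; -0.88 ± 0.28, adjusted p = 0.0311 against control). The call against control was lost without control replicate 1 (adjusted p = 0.0811), control replicate 4 (0.0801) or STINGX with TGFb replicate 2 (0.0669), with no filter on low counts (0.0681) and on unfiltered log2(FPKM + 1) (0.128). The call against TGFb was lost on unfiltered log2(FPKM + 1) (adjusted p = 0.0595). Nearly all of the gene's counts belonged to 2 transcripts. ENST00000368654 had 18673, 1515, 2214 and 22198 counts in the control libraries, and ENST00000368653 had 1631, 12645, 12768 and 0. Where one was high the other was low, and the libraries led by ENST00000368654 had the higher gene counts among the controls.

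**Figure D4:**
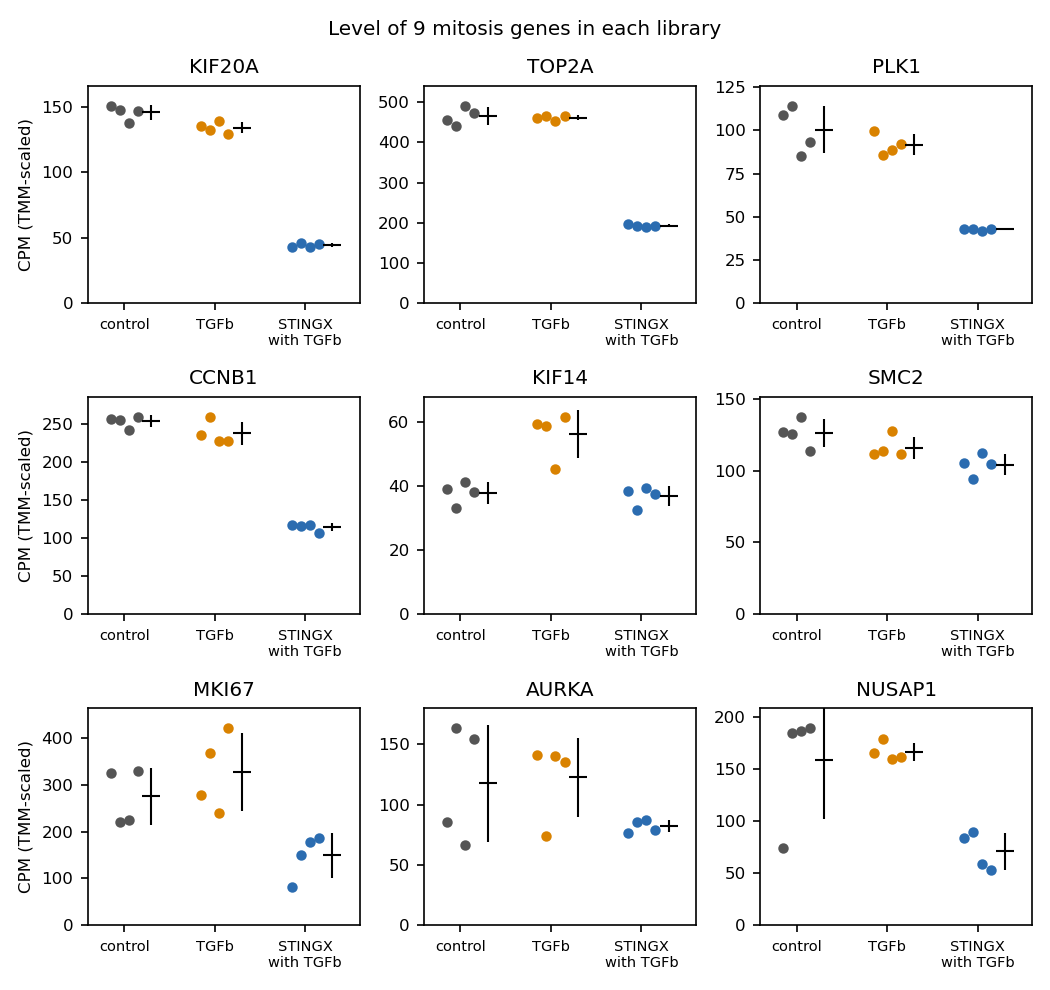
CPM of 9 of the genes in each library (points) with the group mean and SD (bar and whisker, n = 4), on axes that start at 0. KIF20A, TOP2A, PLK1 and CCNB1 have STINGX libraries set apart below the other groups, KIF14 is high with TGFb only, SMC2 has STINGX libraries that overlap TGFb but not control, and MKI67, AURKA and NUSAP1 scatter within groups.

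Per unit of length, in FPKM (fragments scaled by transcript length and library size), the control means of the 44 spanned from 4.36 to 131 with a median of 17.8. UBE2C was highest (131 ± 6.19 FPKM, mean ± SD, n = 4), followed by CCNB1 (87.3 ± 2.36) and TPX2 (86.1 ± 1.21), a pair that did not differ beyond their spread, and by TOP2A (61.2 ± 4.05). KIF14 (4.36 ± 0.46), CENPE (4.45 ± 0.353) and KIF18A (4.96 ± 0.281) were lowest, and the first 2 of these were likewise within their spread. With STINGX and TGFb the range was 2.69 to 62.2 FPKM with a median of 10.6, against 3.996 to 118 and a median of 17.4 with TGFb.

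At the level of transcripts the same direction held, with fewer calls. The table lists 350 transcripts of the 44 genes, of which 250 could be tested. From TGFb to STINGX with TGFb 37 of them were lower and 0 higher, in 29 genes, where of all 79677 transcripts tested 2.4% were called, 1.29% lower and 1.12% higher. Against control 45 were lower and 1 higher, where 3.45% of all were called, 1.85% lower and 1.6% higher. In 26 genes the same transcript had the most counts in all 12 libraries, and 24 of those leading transcripts were lower in STINGX with TGFb against TGFb. In the other 18 genes the lead was not held by the same transcript in all 12 libraries. For CENPA, CENPE, KIF14, KIF2C, NUF2 and PLK1 the top transcript still led in 11 of the 12. With TGFb against control 1 transcript was called, a higher one (2.33% of all were called, 1.17% higher and 1.17% lower), ENST00000348983 of CDC25C, a minor form at 11, 26, 17 and 20 counts in control and 180, 94, 186 and 200 with TGFb (log2 fold change 3.33, adjusted p = 0.0416). Leaving out 1 library at a time gave no called transcript in 6 of 12 fits. The same transcript was the 1 higher against control with STINGX, at 12, 220, 212 and 212 counts (adjusted p = 0.0463), and no member transcript was higher there in 11 of 12 fits with 1 library left out.

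The wider mitotic machinery was followed through 6 lists of genes that are not among the 44. From TGFb to STINGX with TGFb, 13.8% of all genes tested were lower and 13.7% higher. Of 22 other spindle, centrosome and cytokinesis genes, 17 were lower with STINGX than with TGFb and 0 higher (median -0.52). FAM83D, KIF22 and CEP55, an abscission factor, had -0.92, -0.67 and -0.72. Of 19 other genes of mitotic entry and exit, 14 were lower and 1 higher (median -0.38), among them CDKN3, a phosphatase that acts on CDKs, at 42.3, 43.1, 43.2 and 40.3 CPM with TGFb and 20.3, 19.8, 19.7 and 21.3 with STINGX (-1.06), KPNA2 (-0.87) and GTSE1 (-0.87). The 1 higher gene was CDC25A, the CDC25 form that acts at the start of S phase as well (0.24).

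Of 10 other checkpoint and passenger genes, 7 were lower and 0 higher (median -0.28). Borealin (CDCA8, -0.72), the centromere guardian SGO2 (-0.72) and the checkpoint effector MAD2L1 (-0.50) led them. Of 15 other condensin and cohesin genes, 8 were lower and 0 higher (median -0.22). NCAPD2, a condensin I subunit, was at 296, 287, 289 and 287 CPM with TGFb and 132, 134, 133 and 144 with STINGX (-1.10), and the cohesin subunit RAD21 had -0.46. Of 27 other kinetochore and centromere genes, 8 were lower and 0 higher (median -0.19), led by KNL1 (-0.79), SKA2 (-0.64) and CENPW (-0.65). These 8 were 29.6% of that list, where 13.8% of all genes were lower and 27.5% were called in either direction. The 15 APC/C genes had 5 lower and 1 higher (median -0.16), with the chain-extending enzyme UBE2S at -0.83 and the scaffold subunit ANAPC1 at 0.12.

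Outside mitosis, 40 DNA replication genes had 13 lower and 3 higher (median -0.12), with PCNA at -0.41, MCM7 at -0.40 and PRIM1 at 0.39. The 13 G1 cyclins and CDK inhibitors had 6 lower and 3 higher (median -0.22), a called share of 69.2% against 27.5% of all genes. In that list CDKN1C (1.50), CDKN1B and CCND2 were higher, and CDKN2B (-1.24) and CDKN2A were among the lower genes. Over the 9 lists together, 80 of 183 genes were lower and 11 higher, against the 13.8% and 13.7% of all genes. With library size alone these became 56 lower and 34 higher, where all 21328 genes split into 1890 lower and 4997 higher. From control to TGFb the same 183 had 29 higher and 20 lower, near the background of 13.2% and 12.8%. With library size alone these became 19 higher and 32 lower, where all 21328 genes split into 2224 higher and 3523 lower. The lower count of the 183 was 11 without TGFb replicate 3 and 10 without TGFb replicate 4.

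**Figure D5:**
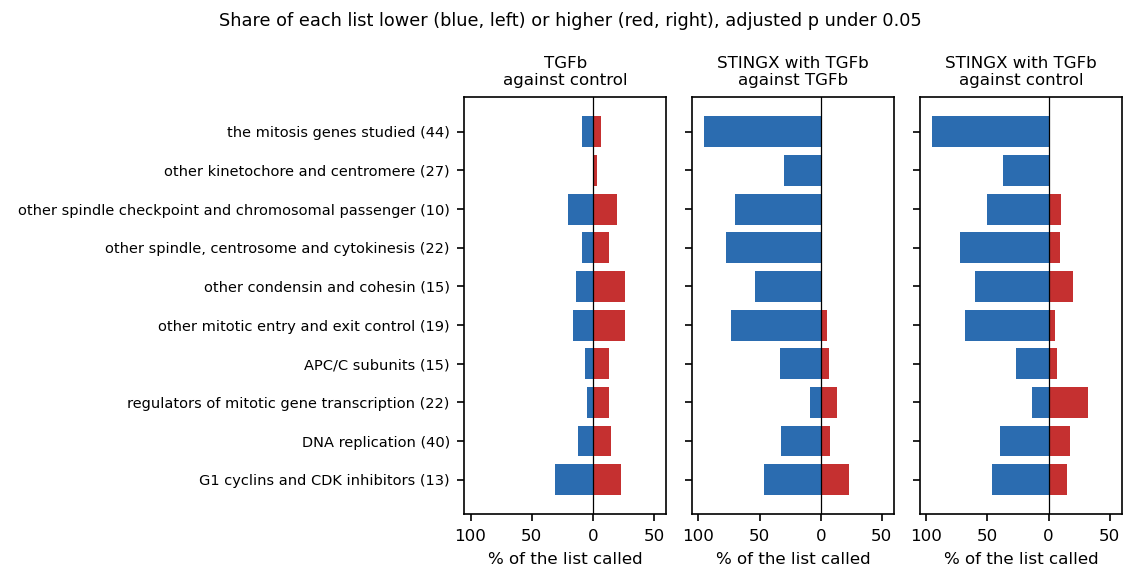
Share of each gene list (number of genes in brackets) that was lower (blue, drawn to the left) or higher (red, to the right) at an adjusted p under 0.05 in each of the 3 comparisons, in percent of the list. The studied genes reach 95.5% lower in both comparisons with STINGX, against 77.3% of the other spindle list, 29.6% of the other kinetochore list and 2 of the 22 regulators from TGFb to STINGX with TGFb; differences between lists were not tested.

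Of the 22 regulators of mitotic transcription, 3 were higher and 2 lower with STINGX and TGFb than with TGFb (median 0.05), a called share of 22.7% against 27.5% of all genes. MYBL2, the activating partner of MuvB, had the same order of groups as KIF14, at 333, 332, 308 and 312 CPM in control, 462, 461, 449 and 434 with TGFb and 309.6, 295, 287 and 301 with STINGX. It was higher with TGFb than in either other group (0.49 ± 0.04, adjusted p = 1.03e-06 against control; -0.60 ± 0.04, adjusted p = 1.69e-07 from TGFb to STINGX with TGFb). FOXM1 was at 292, 227, 237 and 218 CPM, 239.6, 214, 284 and 213 CPM and 182, 217, 183 and 283 CPM. Its groups overlapped throughout (-0.14, adjusted p = 0.573), and with library size alone the value was 0.004. LIN9, a MuvB core subunit, did not pass either (0.19, adjusted p = 0.134), and LIN54, the subunit that contacts DNA, was higher (0.38, adjusted p = 0.0284).

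Of the E2F factors, the activator E2F1 was at 192, 205, 188 and 193 CPM with TGFb and 234, 232, 236 and 232 with STINGX (0.26, adjusted p = 0.000531). The repressors parted: E2F7 went from 95.0, 104, 97.6 and 95.6 CPM to 187, 176, 172 and 182 (0.87 ± 0.05, adjusted p = 1.07e-07), and E2F8 from 11.1, 12.7, 14.4 and 14.2 to 7.53, 8.52, 8.85 and 7.80 (-0.68 ± 0.12, adjusted p = 0.000767). So E2F1 and E2F7 were higher and E2F8 lower, each without overlap of the groups. CDKN1A, the CDK inhibitor p21, was at 224, 239, 57.9 and 200.1 CPM in control, 235, 232, 234 and 220.4 with TGFb and 209.9, 59.4, 214 and 219 with STINGX. Apart from 1 low library in control and 1 with STINGX, its values lay between 200.1 and 239.4 CPM in all groups (-0.39, adjusted p = 0.585). Cyclin D1 (CCND1), which acts in G1, was at 384, 410.2, 381 and 377 CPM, 785, 802, 767 and 736 CPM and 657, 675, 663 and 656 CPM, higher with TGFb (0.99) and slightly lower with STINGX than with TGFb alone (-0.22 ± 0.04, adjusted p = 0.000538).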

How the data were processed

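Polyadenylated RNA was sequenced as stranded, paired-end libraries, per the labels' protocols. The submitters' processing notes name cutadapt, HISAT2, StringTie, edgeR and GRCh38, without versions. The sources do not give whether counting used strand. Deposited were the authors' estimated counts (expected counts, whole numbers) per gene and transcript, and FPKM per gene, in which a count of 0 is listed at 0.0001. Gene names and positions are those of GENCODE v29.

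Gene counts of all 12 libraries were fitted together with edgeR 4.0.16 (R 4.3.3; TMM scaling, filterByExpr with a minimum count of 10 and a total of 15, robust quasi-likelihood test, 9 residual degrees of freedom), with Benjamini-Hochberg adjustment over all 21328 genes and a threshold of 0.05. Transcripts were fitted likewise. The fit was also run on simulated data, in which all genes had the same spread, set below the common spread of these data. That run does not show how the fit handles genes as uneven as AURKA, NUSAP1 or MKI67. Alternatives used DESeq2 1.42.0, limma 3.58.1, other scalings, filters, FPKM with a pseudocount of 1 or 0.1, a replicate block, and each library left out. Per-library values were given for at least 1 gene of each role and for the 4 largest rises and falls per comparison. From each other list, genes were drawn from up to 3 per direction by adjusted p. Not all of these were named, and most were given without per-library values. FOXM1, MYBL2, E2F1, LIN9, CDKN1A and CCND1 were always included. The members and lists were chosen with earlier results of these data known, and the promoters to print after values were seen. No label says that replicates were grown separately, and each p-value therefore reflects spread among the 12 libraries alone, possibly technical spread.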

Additional observations from a re-analysis of the deposited data

Results flagged for a closer look

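In 10 of 132 groups of 4 libraries (44 genes in 3 groups), 1 library stood apart from the other 3 by more than Dixon's 95% critical share of the range. Chance flags about 1 in 20 groups. TGFb replicate 3 accounts for 5 of them: it was lowest for KIF14 at 45.3 CPM, DLGAP5 at 82.45 CPM and HMMR at 48.99 CPM, and highest for BUB1 at 108.3 CPM and SMC2 at 127.4 CPM. STINGX with TGFb replicate 1 was lowest for KIF2C at 77.71 CPM and NCAPG at 54.66 CPM, and replicate 4 for CCNB1 at 106.9 CPM. The remaining pair had far larger gaps in CPM, AURKA at 73.67 CPM in TGFb replicate 2 and NUSAP1 at 74.31 CPM in control replicate 1. As a share of the range their gaps were 0.916 and 0.959, where DLGAP5 had 0.945 and BUB1 0.93. In AURKA and NUSAP1 the counts passed between transcripts from library to library.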

How the results depend on the processing

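Over 25 alternatives to the values reported, the 207 single-gene results gave 5169 values, of which 4903 kept their direction and their side of the threshold, 181 lost the call, 42 gained it and 43 changed sign. From TGFb to STINGX with TGFb, between 39 and 43 members were lower, depending on the setting, and 39 in all 26. The TGFb against control count of 7 called members became 11 with upper quartile scaling, 13 with library size alone, and 14 on log2(FPKM + 1) or log2(FPKM + 0.1). The log2 ratio of the summed level became -0.0958 (TGFb against control) and -0.738 (STINGX with TGFb against TGFb) on summed FPKM. The 1 transcript called in TGFb against control became 0 to 3 with 1 library left out. Library size alone moved the median of all genes to -0.07, 0.15 and 0.08 in the 3 comparisons, and its calls split into 2224 higher and 3523 lower, 4997 and 1890, and 4683 and 2876, against 2813 and 2730, 2931 and 2933, and 3670 and 3626 as reported. On log2(FPKM + 1) the splits were 1994 and 3078, 4428 and 1660, and 4299 and 2495. The causes were not tested.

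The sign changes fell on genes that had not passed the test in the comparison concerned. In TGFb against control, AURKA was -0.0008 with library size alone. BUB1 was -0.025 with upper quartile scaling, -0.048 with library size alone, -0.042 on log2(FPKM + 1) with and without a filter and -0.045 on log2(FPKM + 0.1). CENPF in the same order was -0.015, -0.039, -0.031 and -0.033, and NDC80 -0.032, -0.055, -0.049 and -0.051, with -0.0016 for NDC80 without a filter on low counts and -0.0047 with only the groups compared. FOXM1 was 0.0038 in STINGX with TGFb against TGFb with library size alone. CDKN1A in STINGX with TGFb against control was 0.048 with library size alone, 0.053 on log2(FPKM + 1) with and without a filter and 0.055 on log2(FPKM + 0.1). With 1 library left out, the ranges in TGFb against control were -0.037 to 0.012 for TOP2A, -0.039 to 0.018 for CDK1, -0.14 to 0.26 for AURKA, -0.032 to 0.034 for BUB1, -0.018 to 0.062 for CENPF, -0.023 to 0.036 for NDC80 and -0.13 to 0.064 for FOXM1, and -0.33 to 0.25 for CDKN1A in STINGX with TGFb against control.

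Samples with the same replicate number did not deviate together (r from -0.038 to 0.045 over 12 pairs, and -0.041 to 0.042 over 36 pairs with different numbers), so the numbers are not taken to pair the samples. With a replicate block, members called were 7, 43 and 42 in the 3 comparisons, and their transcripts 0, 28 and 36.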
